A study of Mus musculus with 18 samples.

Results

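RNA of 10 genes of the major histocompatibility complex (MHC) class I antigen presentation pathway was followed in mouse striatum and substantia nigra after injections of 6-hydroxydopamine (6-OHDA) and the compound TUG469. The genes were picked by symbol: H2-K1, H2-D1, B2m, Tap1, Tap2, Tapbp, Psmb8, Psmb9, Nlrc5 and Cd74. All 10 were listed in both tissue tables, among 20257 genes in striatum and 20897 in nigra, and all 10 passed the filter on low counts in both. The mice were wild-type C57BL6 and every library was from 3 weeks. In the PBS group, phosphate-buffered saline (PBS) was injected both into the striatum and into the peritoneum. In the 6-OHDA group, 4 µg of 6-OHDA, a toxin taken up by catecholamine neurons, went into the striatum and PBS into the peritoneum. The TUG469 group had the same striatal toxin together with TUG469, an agonist of the fatty acid receptor GPR40, at 10 mg per kg and day into the peritoneum. Each group had 3 libraries per tissue, 18 libraries in all, and no group received TUG469 without 6-OHDA. The labels give no age or sex and do not state that each library is a separate animal, so p-values measure only the spread between these libraries.

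The libraries held 42242389 to 61992226 counted reads, of which 4776 to 12281 fell on the 10 genes. The striatal marker Ppp1r1b stood at 1335.8 to 2779.7 CPM (read counts scaled to the library size with TMM factors) in striatum and at 29.4 to 51.1 in nigra. The nigral dopamine genes did not follow the treatment label: Th was at 33.1 ± 6.85 CPM (SD, n = 3) after PBS, 51.4 ± 9.51 in the libraries labelled 6-OHDA and 17.1 ± 4.16 in those labelled TUG469. Slc6a3 was at 57.5 ± 11.1, 54.6 ± 11.2 and 13.6 ± 2.76 CPM in the same order. All 6 nigral dopamine neuron markers were lower in the TUG469 libraries than in the 6-OHDA ones, with a median log2 difference of -1.38. Striatal 6-OHDA 2 stood apart with a summed choroid plexus marker level of 1674 CPM, against 21.4 to 168.2 in the other 8 striatal libraries. Striatal PBS 2, 6-OHDA 4 and TUG469 2 also stood apart. Their deviations from their group means correlated with each other (r of 0.42 to 0.46 across genes), and their summed projection neuron markers were at 6048 to 6629 CPM against 3805 to 5066 in the other 6. Results that rest on these 3 libraries are given with and without them.

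MHC class I molecules display peptides from inside the cell to CD8 T cells. The proteasome cuts proteins into peptides, the TAP transporter moves these into the endoplasmic reticulum, and tapasin holds the transporter next to an empty class I heavy chain paired with beta-2-microglobulin until a peptide binds. In healthy brain the pathway is low in neurons and higher in microglia and endothelial cells, and interferons raise it in most cell types.

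The upstream sequences of the genes that carry most of the class I reads are shown here, because their windows hold interferon or kappa B letters that were not found in the other 4 windows searched. They are RefSeq promoter windows of build GRCm38.p6, read 5′ to 3′ along the gene's own strand. The longer stretches are the 180 bases before the start site of H2-K1 (chr17:34000348-34000527, minus strand) and of B2m (chr2:122147507-122147686, plus strand). The blocks are the 30 bases that hold the kappa B and interferon factor letters of H2-K1 (chr17:34000429-34000458, minus strand) and of H2-D1 (chr17:35262923-35262952, plus strand). Capitals mark the letters searched for.
H2-K1 upstream: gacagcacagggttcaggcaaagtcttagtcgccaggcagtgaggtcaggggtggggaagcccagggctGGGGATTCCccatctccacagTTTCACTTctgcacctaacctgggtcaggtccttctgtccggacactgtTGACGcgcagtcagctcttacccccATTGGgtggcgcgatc
B2m upstream: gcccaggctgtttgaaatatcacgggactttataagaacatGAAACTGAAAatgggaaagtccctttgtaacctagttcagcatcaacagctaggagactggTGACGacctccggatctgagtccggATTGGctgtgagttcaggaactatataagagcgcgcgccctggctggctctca
H2-K1 block: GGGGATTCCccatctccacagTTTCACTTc
H2-D1 block: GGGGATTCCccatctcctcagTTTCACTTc

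Both blocks open with the kappa B letters GGGGATTCC and close with the interferon regulatory factor core AANNGAAA, printed here as its reverse complement. They differ at 1 of 30 bases, A18T, with H2-K1 named first and positions counted from the 5′ end of the block. Over the aligned upstream stretch, H2-K1 and H2-D1 were identical at 161 of 177 columns (91.0%). B2m carries the longer letters of the interferon-stimulated response element, GAAA, any 2 bases and GAAA again, every match of which also contains AANNGAAA. Matches were sought on both strands of the 300-base windows of 7 of the 10 genes. AANNGAAA was found in 3 of them (H2-K1, H2-D1 and B2m) and in 23.9% of 32851 mouse windows. The interferon-stimulated response element was found in B2m alone of the 7 and in 3.44% of all windows. GGGGATTCC was found in H2-K1 and H2-D1 and in 0.25% of all windows. The letters TGACG were in 5 of the 7 and in 20.8% of all windows, and CCAAT was in 6 of the 7 and in 37.4%. The letters were chosen with these sequences in view, so the counts describe the windows and say nothing of a factor's binding.

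In the PBS groups the light chain was by far the most abundant member. Levels between genes are compared per transcript length, as TPM, in which the length-corrected values of a library share one total. In striatum after PBS, B2m, which encodes beta-2-microglobulin, stood at 144 ± 15.2 TPM (SD, n = 3). The classical heavy chains followed, H2-D1 at 36.6 ± 4.36 TPM and H2-K1 at 25.1 ± 3.46 TPM. Tapbp, which encodes tapasin, was at 17.1 ± 2.95 TPM, and Tap2, a chain of the peptide transporter, at 5.81 ± 0.331 TPM.
The low end of the striatal order held Psmb8 at 3.94 ± 1.35 TPM, Psmb9 at 2.21 ± 0.881, Cd74 at 2.07 ± 0.8, Tap1 at 1.02 ± 0.314 and Nlrc5 at 0.330 ± 0.0456. Psmb8 and Psmb9 encode catalytic subunits of the immunoproteasome, Tap1 the second transporter chain, Nlrc5 a transactivator of class I genes, and Cd74 the invariant chain of class II molecules. Of the neighbours in this order, the ranges of Psmb8 and Psmb9 overlapped, but Psmb8 was the higher in each PBS library. Psmb9 was above Cd74 in PBS 1 and PBS 3 and below it in PBS 2, so the order of Psmb9 and Cd74 is not resolved.
The nigral order began with the same 5 genes, from B2m at 175 ± 8.30 TPM to Tap2 at 9.18 ± 0.652 TPM. Cd74 came next at 6.51 ± 2.12 TPM, ahead of Psmb8 at 4.06 ± 0.700, Tap1 at 2.04 ± 0.198, Psmb9 at 1.59 ± 0.953 and Nlrc5 at 0.435 ± 0.119. The ranges of Tap2 and Cd74 overlapped, but Tap2 was the higher in each PBS library. Those of Tap1 and Psmb9 overlapped too, and Psmb9 was the higher in PBS 3, so their order is not resolved.

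**Figure D1:**
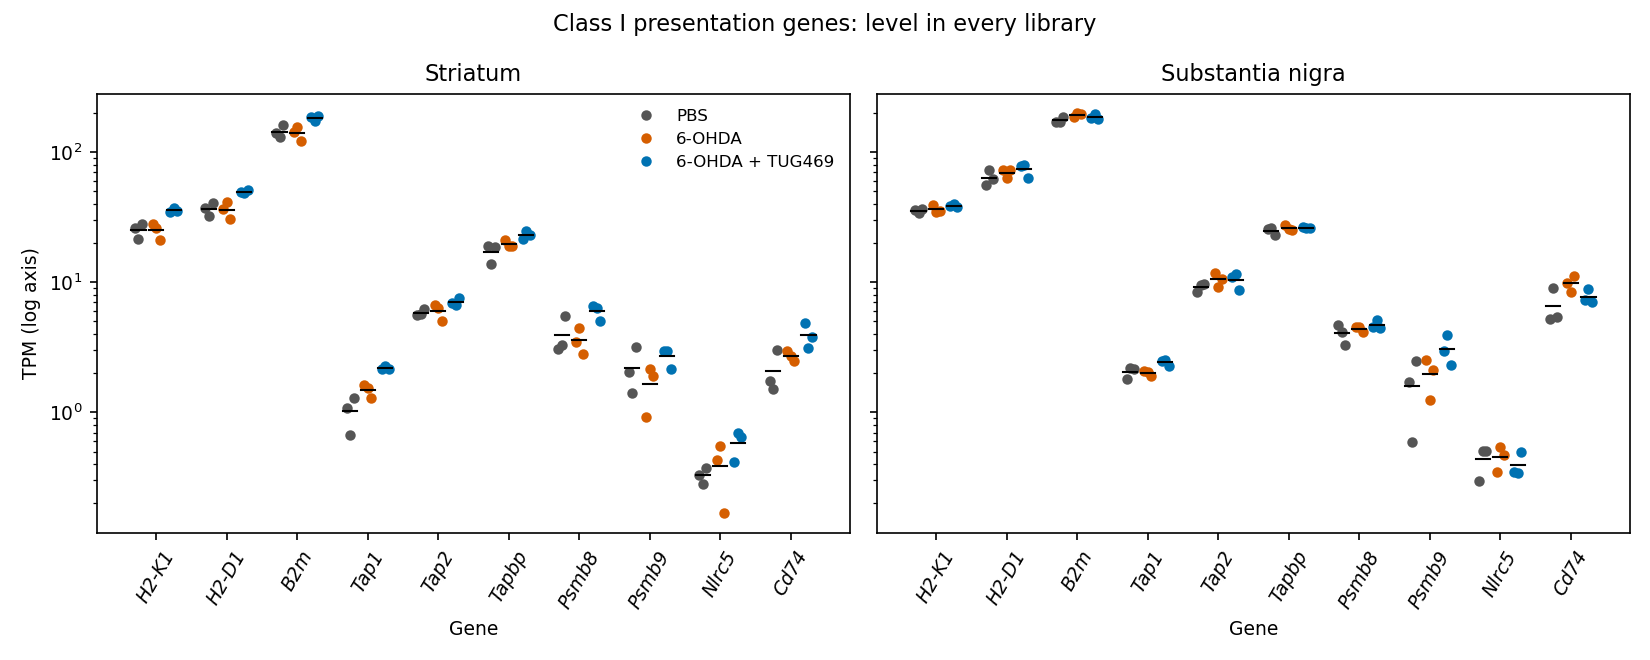
Level of each gene in TPM (log axis) in every library, by tissue and group, with points for libraries and bars for group means. B2m stands highest in all groups, at 144 TPM in the striatal and 175 TPM in the nigral PBS group, and Nlrc5 lowest.

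Between the PBS groups of the 2 tissues, of which only the striatum was an injection site, the nigra held more RNA of 5 of the 10 genes. Cd74, H2-D1, Tap1, Tap2 and Tapbp were higher in nigra at an adjusted p under 0.05, and none was lower. The tissues differ at most genes: 55.8% of 18749 genes tested passed the same threshold, so 5 of 10 is near the background. In bulk RNA, fewer cells of a type and less RNA per cell cannot be told apart.
Cd74 differed most. It stood at 1.06, 0.910 and 1.78 CPM in the striatal PBS libraries and at 2.59, 4.24 and 2.68 in the nigral ones, with all 18 libraries scaled together. The groups did not overlap, and the log2 difference was 1.33 (SE 0.256, edgeR adjusted p = 0.00035).
H2-D1 stood at 28.3, 25.7 and 31.9 CPM in striatum and at 36.1, 45.8 and 40.1 in nigra. Again the groups did not overlap, with a log2 difference of 0.51 (SE 0.116, edgeR adjusted p = 0.00151). Tap1 was higher in nigra by 0.70 on the log2 scale (SE 0.177, edgeR adjusted p = 0.00317), from 1.43, 0.936 and 1.74 CPM in striatum to 2.0, 2.34 and 2.36 in nigra.
The calls of Tap2 (log2 difference 0.37, edgeR adjusted p = 0.0206) and Tapbp (0.25, edgeR adjusted p = 0.0343) rest on single libraries. The edgeR adjusted p of Tap2 was 0.071 without striatal PBS 1 and 0.0727 without nigral PBS 3. That of Tapbp was 0.193 without striatal PBS 2, with the log2 difference at 0.12, and 0.092 and 0.0888 without nigral PBS 1 and 2.
H2-K1 differed by 0.20 (edgeR adjusted p = 0.071). B2m was at -0.00 and Nlrc5 at 0.11, while Psmb8 and Psmb9 stood lower in nigra, at -0.25 and -0.63, and none of these passed. Without the 3 striatal libraries that stand apart, Cd74, H2-D1, Tap1 and Tap2 passed and Tapbp did not.
All 15 microglia markers were lower in nigra at an edgeR adjusted p under 0.05 (median log2 difference -0.82), and the summed microglia level was 483 to 599 CPM in striatum and 316 to 392 in nigra. All 5 border macrophage and dendritic markers tested were higher in nigra, 4 of them at an edgeR adjusted p under 0.05. Mrc1 was higher by 2.14 and F13a1 by 2.66 on the log2 scale. The class II genes split: H2-Eb1, a class II chain, was higher by 2.08 and H2-DMa, which loads class II peptides, was at -1.22. The part of these cell types in the class I differences was not tested.

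TUG469 given with 6-OHDA, against 6-OHDA alone, asks whether the compound was accompanied by another level of the pathway. The nigral libraries of these 2 groups also differed in dopamine neuron markers, with a median log2 difference of -1.38. The part of that difference in the class I values was not tested. In striatum all 10 genes stood higher in the TUG469 group, with a median log2 difference of 0.50, against 0.0001 over all 19115 genes tested. For 9 of the 10, all but Nlrc5, every TUG469 library lay above every 6-OHDA library in CPM, which held for 7.11% of all genes. No gene of the 10 passed the adjusted threshold in edgeR, where 0.00523% of all genes did. At an unadjusted p under 0.05, 5 of the 10 were higher (H2-K1, H2-D1, B2m, Tap1 and Psmb8), as were 3.46% of all genes. That count was 3 without striatal 6-OHDA 4, TUG469 1 or TUG469 2, and 5 to 7 without any other striatal library except 6-OHDA 2, where it was 4. DESeq2 called 1 of the 10, H2-K1, beside 62 of 18286 genes, and limma called 0, beside 0 of 19690. The authors' deposited table gives H2-K1 a fold change of 1.42 with an adjusted p of 0.0275.

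The heavy chains and the light chain hold most of the class I reads. H2-K1 stood at 19.2, 17.98 and 15.0 CPM in striatal 6-OHDA libraries 2, 3 and 4 and at 23.6, 25.9 and 24.1 CPM in TUG469 libraries 1, 2 and 4. The lowest TUG469 library was above the highest 6-OHDA library. The log2 difference was 0.50 (SE 0.115, edgeR adjusted p = 0.492, DESeq2 adjusted p = 0.0294).
H2-D1 stood at 26.0, 28.9 and 22.05 CPM after 6-OHDA and at 34.6, 34.4 and 35.8 with TUG469. The groups did not overlap, and the log2 difference was 0.45 (SE 0.11, edgeR adjusted p = 0.507).
H2-K1 and H2-D1 lie in the MHC on chromosome 17 (chr17:33996012-34000619 and chr17:35263094-35267497, GRCm38). Their reads are not fully separable from those of related class I genes. In reference transcripts, 8.79% of the 50-base windows of H2-K1 and 14.3% of those of H2-D1 occurred in another gene, and the sources used here do not say how such reads were assigned.
B2m, the shared light chain (chr2:122147687-122153082), stood at 50.05, 53.7 and 43.1 CPM after 6-OHDA and at 64.7, 60.6 and 65.3 with TUG469. Its groups did not overlap, and the log2 difference was 0.38 (SE 0.0968, edgeR adjusted p = 0.523). No 50-base window of B2m occurred in another gene, though its locus lies within the annotated span of Patl2. The spans of Tapbp and Nlrc5 overlap long noncoding genes (Gm19412, 9330175E14Rik and Gm51584), and no strand setting of the counting is given to tell their reads apart.
6-OHDA 4 was the lowest 6-OHDA library for all 3 genes, and it is among the libraries with the most projection neuron RNA. With striatal PBS 2, 6-OHDA 4 and TUG469 2 left out, the log2 differences were 0.36 for H2-K1, 0.36 for H2-D1 and 0.33 for B2m.

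Among the peptide transporter chains and tapasin, Tap1 had a larger log2 difference than Tap2 and Tapbp. Tap1 was at 1.98, 1.85 and 1.60 CPM after 6-OHDA and at 2.60, 2.77 and 2.58 with TUG469, without overlap. The log2 difference was 0.55 (SE 0.218, edgeR adjusted p = 0.628).
Tap2 was at 6.79, 6.41 and 5.17 CPM against 6.94, 6.83 and 7.53, so that only a narrow gap separated the groups. Its log2 difference was 0.21 (SE 0.127, edgeR adjusted p = 0.752). Tapbp was at 23.97, 21.0 and 21.7 CPM against 24.01, 27.7 and 25.3, where 6-OHDA 2 and TUG469 1 were nearly level, with a log2 difference of 0.21 (SE 0.12, edgeR adjusted p = 0.743).

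The immunoproteasome genes had the largest log2 differences of the 10, and Psmb9 the fewest reads in most libraries. Psmb8, the beta 5i subunit, was at 1.74, 2.23 and 1.43 CPM after 6-OHDA and at 3.23, 3.19 and 2.49 with TUG469. The groups did not overlap, and the log2 difference was 0.72 (SE 0.261, edgeR adjusted p = 0.602).
Psmb9, the beta 1i subunit, was at 0.348, 0.737 and 0.642 CPM against 1.07, 1.02 and 0.769. The groups were separated by a small gap, and the log2 difference was 0.72 (SE 0.328, edgeR adjusted p = 0.673). In TPM they overlapped, with 6-OHDA 3 at 2.156 and TUG469 4 at 2.148.
Tap1, Psmb9, Psmb8 and Tap2 lie side by side on chromosome 17, from chr17:34182030-34187330 (Psmb9) through chr17:34187556-34197225 (Tap1) and chr17:34198195-34201454 (Psmb8) to chr17:34204479-34216321 (Tap2). Of these neighbours, Tap2 had the smallest log2 difference.

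Nlrc5, the class I transactivator, was the member whose groups overlapped in CPM. It stood at 1.37, 1.72 and 0.547 CPM after 6-OHDA and at 1.29, 2.20 and 1.99 with TUG469, and the log2 difference was 0.59 (SE 0.367, edgeR adjusted p = 0.759). Without the 3 striatal libraries that stand apart this value was 0.08. Cd74, which serves class II molecules and is expressed by microglia and macrophages, was at 1.64, 1.40 and 1.34 CPM against 2.58, 1.64 and 1.97. The lowest TUG469 library was barely above the highest 6-OHDA library, and the log2 difference was 0.50 (SE 0.273, edgeR adjusted p = 0.723).
With those 3 libraries left out, 2 libraries a group remained. All 10 genes were still higher, with a median of 0.36, and 3 had an unadjusted p under 0.05 (H2-K1, H2-D1 and B2m) against 2.57% of all genes. None passed the edgeR adjusted threshold.

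**Figure D2:**
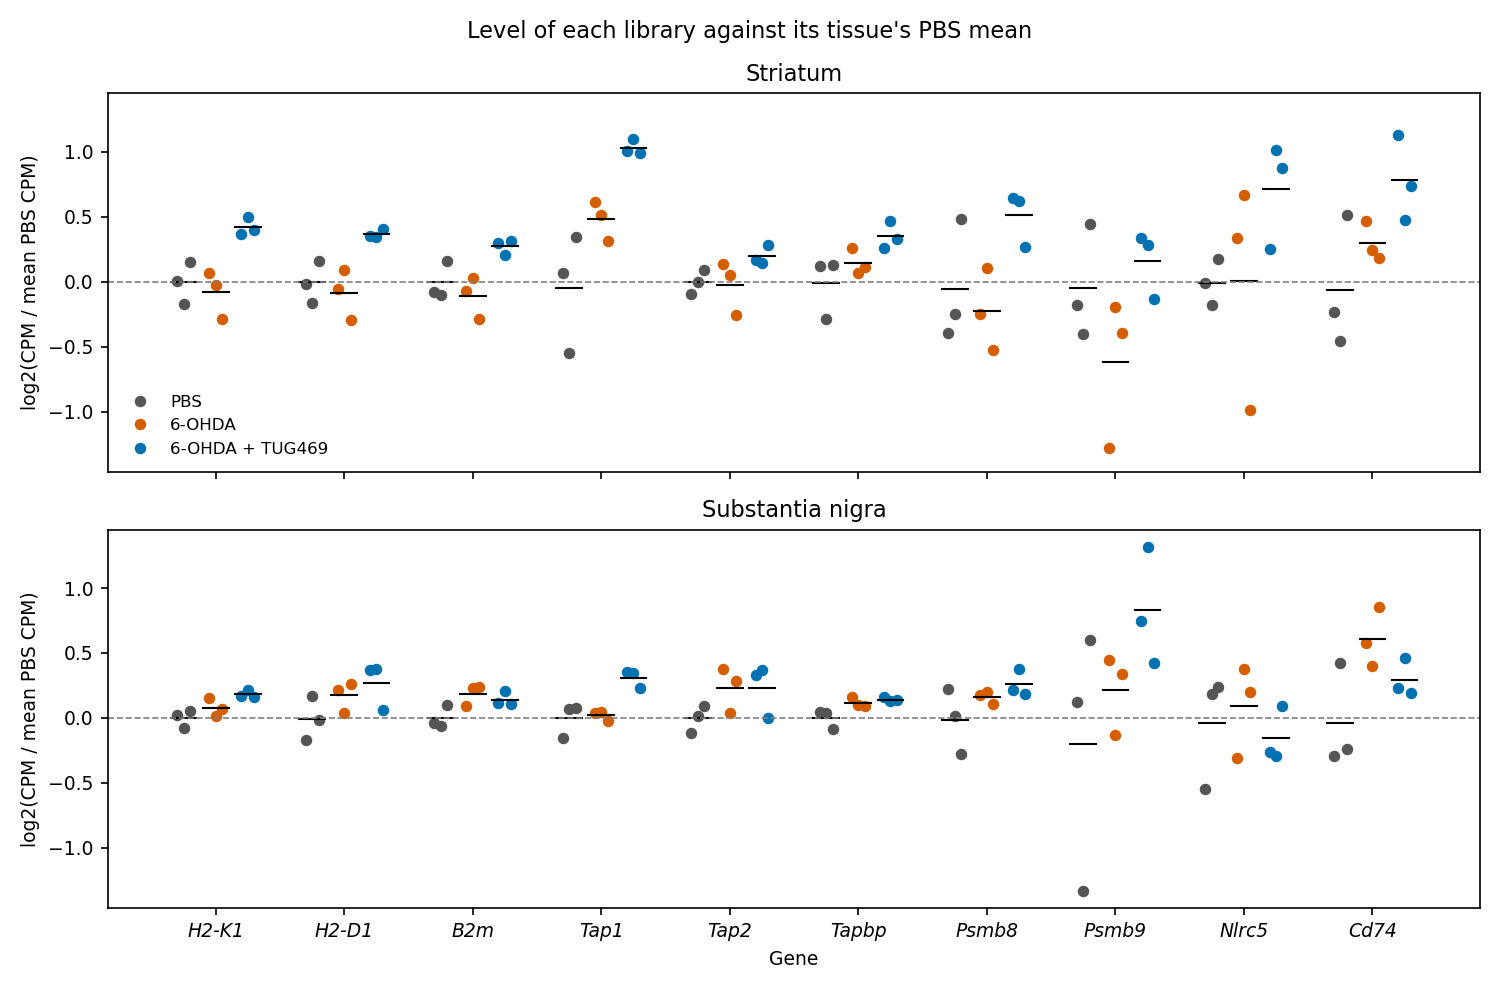
Level of each gene in every library, in CPM, as a log2 ratio to the mean of the PBS group of its tissue, with points for libraries. In striatum the TUG469 libraries lie above all 6-OHDA libraries for every gene but Nlrc5, while in nigra most groups overlap.

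The toxin itself was compared with PBS. In striatum 4 of the 10 genes stood higher and 6 lower after 6-OHDA, with a median log2 difference of -0.04. None of the 10 passed in edgeR, where 0.0% of all genes did, or in DESeq2, where 173 of 19857 genes did. None had an unadjusted p under 0.05, where 4.21% of all genes were higher at that level, and none had groups that lay apart, where 6.1% of all genes were higher in that way. H2-K1 (-0.07, SE 0.115), H2-D1 (-0.08, SE 0.111) and B2m (-0.10, SE 0.0969) stood about 1 standard error or less below 0. Without PBS 3, 8 of the 10 genes stood higher and 2 had an unadjusted p under 0.05. Tap1 had the largest positive value, 0.48 (SE 0.225, edgeR adjusted p = 0.686), and Psmb9 the most negative, -0.55 (SE 0.333, edgeR adjusted p = 0.786).
Beside this, all 7 ependymal markers stood higher after 6-OHDA, with summed levels of 36.3 to 43.9 CPM against 12.8 to 22 after PBS. Their part in the member values was not tested.

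The TUG469 group shares its libraries with the comparison above, and the PBS group with the one before, so the values are set side by side and do not support each other. Against PBS, all 10 genes stood higher in the striatal TUG469 group, with a median log2 difference of 0.39. In edgeR none passed, as 0.0% of all genes passed. At an unadjusted p under 0.05, 6 of the 10 were higher (H2-K1, H2-D1, B2m, Tap1, Tapbp and Cd74), beside 6.36% of all genes. For 7 of the 10 the groups lay apart, beside 9.07% of all genes, and Psmb8, Psmb9 and Cd74 overlapped.
Tap1 differed most. It was at 1.36, 0.884 and 1.64 CPM after PBS and at 2.60, 2.77 and 2.58 in the TUG469 group, a log2 difference of 1.02 (SE 0.223, edgeR adjusted p = 0.204, DESeq2 adjusted p = 0.00575). Every TUG469 library was above every PBS library. Its 6-OHDA libraries, at 1.98, 1.85 and 1.60 CPM, lay between, overlapping with PBS 3 alone.
H2-K1 stood at 18.4, 16.2 and 20.3 CPM after PBS and was higher by 0.42 in the TUG469 group (SE 0.115, edgeR adjusted p = 0.242, DESeq2 adjusted p = 0.0411). H2-D1 and B2m were higher by 0.37 and 0.27. Cd74 was at 1.00, 0.859 and 1.68 CPM after PBS, a difference of 0.80 (SE 0.277, edgeR adjusted p = 0.299), with PBS 3 inside the TUG469 range.
DESeq2 called Tap1 and H2-K1 in this comparison, beside 323 of 17893 genes. Limma called 0 of the 10, beside 0 of 19690 genes. Without the 3 striatal libraries that stand apart, 9 of 10 were higher with a median of 0.30, and Tap1 was at 0.79. Of the 10, 5 were then higher at an unadjusted p under 0.05, beside 6.63% of all genes.

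In nigra all 10 genes stood slightly higher after 6-OHDA than after PBS, with a median log2 difference of 0.17. None passed in edgeR (0.00508% of all genes did) or in DESeq2 and limma. At an unadjusted p under 0.05, 2 of the 10 were higher (B2m and Cd74), beside 6.29% of all genes, but 1 without PBS 3 or with the length trend removed, and 0 without 6-OHDA 4. The groups lay apart for 1 of the 10, Tapbp, beside 9.34% of all genes, so neither share is far from the background.
B2m stood at 57.1, 55.9 and 62.6 CPM after PBS and at 62.5, 68.6 and 68.9 after 6-OHDA. PBS 3 was just above the lowest 6-OHDA library, and the log2 difference was 0.19 (SE 0.0633, edgeR adjusted p = 0.257).
Cd74 stood at 2.73, 4.47 and 2.82 CPM after PBS and at 4.98, 4.41 and 6.04 after 6-OHDA. PBS 2 reached the 6-OHDA range, and the log2 difference was 0.62 (SE 0.206, edgeR adjusted p = 0.252). Nigral PBS 2 also had the highest summed meninges level of that tissue, 231.3 CPM, and its part in the Cd74 level was not tested. The summed B cell markers Cd79a, Ighm and Jchain were at 5.97 to 11.9 CPM after PBS, 13.4 to 19.0 after 6-OHDA and 8.67 to 16.6 with TUG469. Of these 3, 2 were higher and 1 lower in 6-OHDA against PBS, with a median log2 difference of 0.83. Ighm, an antibody chain, was at 0.83 and Jchain at -0.12. None of the 3 passed the edgeR adjusted threshold, and their part in the Cd74 values was not tested.
Tapbp was at 27.4, 27.3 and 25.1 CPM against 29.8, 28.5 and 28.3, without overlap, a log2 difference of 0.12 (SE 0.0577, edgeR adjusted p = 0.378). The remaining members differed by 0.02 (Tap1) to 0.24 (Tap2).

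In nigra, TUG469 with 6-OHDA was compared with 6-OHDA alone, where 6 of the 10 genes were higher and 4 lower, with a median log2 difference of 0.06. None passed in edgeR (0.00508% of all genes did), in DESeq2 or in limma, and 0 had an unadjusted p under 0.05, where 3.86% of all genes were higher. The groups lay apart for 2 of the 10, H2-K1 and Tap1, beside 7.25% of all genes.
H2-K1 stood at 26.1, 23.7 and 24.5 CPM after 6-OHDA and at 26.4, 27.2 and 26.2 with TUG469, a log2 difference of 0.10 (SE 0.0624, edgeR adjusted p = 0.736). The gap between the groups was narrow. Tap1 was at 2.41, 2.43 and 2.31 CPM against 3.01, 2.98 and 2.76, a log2 difference of 0.29 (SE 0.135, edgeR adjusted p = 0.618).
Psmb9 had the largest value, 0.64 (SE 0.409, edgeR adjusted p = 0.748), at 0.823, 0.552 and 0.766 CPM after 6-OHDA and 1.02, 1.51 and 0.812 with TUG469. TUG469 4 was just below the highest 6-OHDA library. B2m (-0.05) and Tap2 (-0.000214) were nearly level. Nlrc5 (-0.26) and Cd74 (-0.32) had the most negative values.

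Against nigral PBS, 9 of the 10 genes were higher in the TUG469 group and Nlrc5 was lower, with a median log2 difference of 0.25. None of the 10 passed in edgeR, DESeq2 or limma, where 1.85% of all genes passed in edgeR (79 higher and 285 lower, or 63 and 83 with upper-quartile scaling). At an unadjusted p under 0.05, 5 of the 10 were higher (H2-K1, H2-D1, B2m, Tap1 and Tapbp), beside 8.69% of all genes. That count was 1 without TUG469 1 or TUG469 2, 2 without PBS 1, and 3 without PBS 2, PBS 3, 6-OHDA 3 or 6-OHDA 4. It was 0 with the length trend removed, with or without the replicate block, 1 with the replicate block alone or with limma, 2 with the compared groups only and 3 with DESeq2. For 4 of the 10 the groups lay apart (H2-K1, B2m, Tap1 and Tapbp), beside 11.7% of all genes.
H2-D1 stood at 38.1, 48.2 and 42.3 CPM after PBS and at 55.3, 55.7 and 44.7 in the TUG469 group. TUG469 4 lay inside the PBS range, and the log2 difference was 0.28 (SE 0.109, edgeR adjusted p = 0.198). H2-K1 was higher by 0.18 (SE 0.0625, edgeR adjusted p = 0.148), from 23.8, 22.3 and 24.4 CPM after PBS to 26.4, 27.2 and 26.2.
Psmb9 had the largest value, 0.87 (SE 0.416, edgeR adjusted p = 0.277), but its PBS 2 library held only 13 reads, the fewest of any member in any library.

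**Figure D3:**
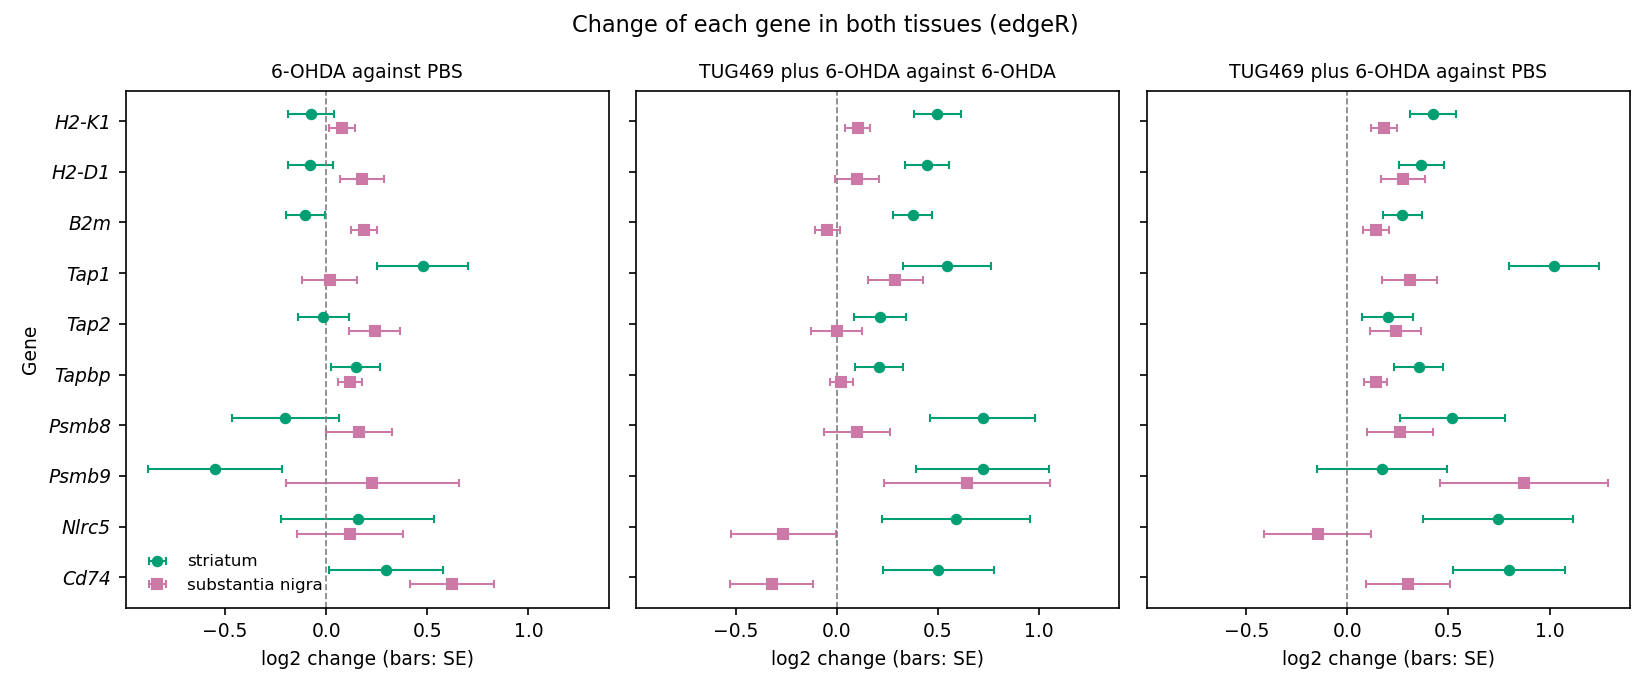
Log2 difference of each gene in the 6 comparisons within a tissue, with bars of 1 standard error from edgeR. The striatal TUG469 comparisons lie right of 0 for all 10 genes, with medians of 0.50 against 6-OHDA and 0.39 against PBS. Nigral medians were smaller, 0.06 against 6-OHDA and 0.25 against PBS, although nigral Psmb9 stood at 0.64 and 0.87.

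Whether the tissues differed in these responses was tested directly. The TUG469 difference was smaller in nigra than in striatum for all 10 genes, with a median gap of -0.37 on the log2 scale. None passed in edgeR (adjusted p = 0.9997 for each, with 0.0% of all genes called), DESeq2 or limma. At an unadjusted p under 0.05, 4 of the 10 were lower (H2-K1, H2-D1, B2m and Cd74), beside 2.07% of all genes. Leaving out striatal 6-OHDA 4, nigral 6-OHDA 4 or nigral TUG469 4 brought that count to 2, as did the replicate block. The gaps were -0.40 (SE 0.129) for H2-K1, -0.42 (SE 0.117) for B2m and -0.83 (SE 0.347) for Cd74. Without the 3 striatal libraries that stand apart, all 10 were still lower, with a median of -0.27. Of the 10, 3 were then lower at an unadjusted p under 0.05, beside 476 of 18790 genes.
The 6-OHDA difference was larger in nigra for 7 of the 10 genes and smaller for 3, with a median gap of 0.25. None of the 10 passed in edgeR, where 0.155% of all genes did, or in DESeq2 and limma. At an unadjusted p under 0.05, 1 of the 10 was higher, B2m at 0.29 (SE 0.117, edgeR adjusted p = 0.319), beside 6.01% of all genes. That count was 0 without striatal PBS 3 or 6-OHDA 4, or without nigral PBS 1, PBS 2, 6-OHDA 3 or 6-OHDA 4, and 2 without striatal 6-OHDA 3. It was also 0 with limma and with the length trend removed.

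The immunoproteasome forms when the inducible subunits Psmb8, Psmb9 and Psmb10 take the place of Psmb5, Psmb6 and Psmb7. RNA of Psmb8 was 3.13% ± 1.05 of that of Psmb5 in striatum after PBS (TPM ratio, SD, n = 3), 2.77% ± 0.495 after 6-OHDA and 4.69% ± 0.818 with TUG469. The TUG469 libraries, at 3.77% to 5.35%, lay above the 6-OHDA libraries, at 2.22% to 3.19%, and overlapped with PBS 3 at 4.31%. In nigra the ratio was 2.44% ± 0.405, 2.45% ± 0.215 and 2.51% ± 0.215 in the same order of groups.
Psmb9 relative to Psmb6 was 1.48% ± 0.625, 1.18% ± 0.426 and 1.80% ± 0.293 in striatum, and 0.957% ± 0.569, 1.13% ± 0.308 and 1.73% ± 0.506 in nigra. These groups overlapped in both tissues.
Psmb10 relative to Psmb7 was higher throughout, at 9.28% ± 2.0, 11% ± 3.42 and 11.8% ± 3.52 in striatum and 15.6% ± 0.484, 16.6% ± 1.13 and 17.8% ± 0.528 in nigra. The lowest striatal ratios were those of the 3 libraries that stand apart, at 6.98%, 7.12% and 7.75% against 10.2% to 14.1% in the other 6. In striatal TUG469 against 6-OHDA the constitutive subunits moved little. Of 14 such genes, 10 were higher and 4 lower, with a median log2 difference of 0.04, and 0 had an unadjusted p under 0.05. Against striatal PBS, 14 were lower after 6-OHDA (median -0.10) and 13 with TUG469 (-0.07). Against nigral PBS, 12 were higher after 6-OHDA (median 0.06) and 13 with TUG469 (0.11).

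**Figure D4:**
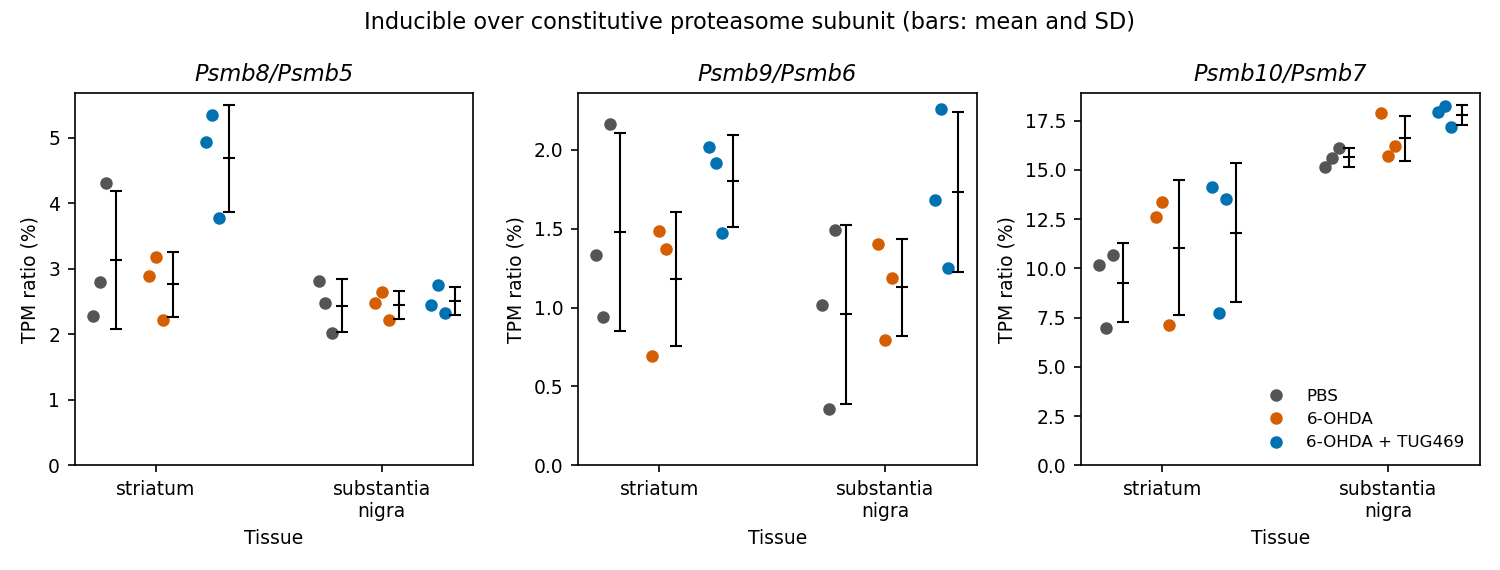
TPM of each inducible proteasome subunit as a percent of its constitutive counterpart in every library, by tissue and group. The Psmb8 ratio of the striatal TUG469 libraries (3.77% to 5.35%) lies above that of the 6-OHDA libraries (2.22% to 3.19%).

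The rest of the pathway was less uniform than the 10 genes in the striatal comparison of TUG469 with 6-OHDA. Of 21 other class I genes, 16 were higher and 5 lower, with a median log2 difference of 0.14, and none passed the edgeR adjusted threshold. Their summed level went the other way, at 1040 to 1170 CPM after 6-OHDA and 881 to 926 with TUG469, without overlap. After PBS it was 917 to 1250 CPM, which overlapped with both groups. H2-Q4 and H2-Q6, nonclassical heavy chains that resemble the classical ones in sequence, stood at 0.71 and 1.20. Calr and Pdia3, chaperones that fold heavy chains among many other proteins, stood at -0.50 and -0.42. These 4 had unadjusted p-values under 0.05. Without the 3 striatal libraries that stand apart, 11 of the 21 were higher and 10 lower, with a median of 0.01.
Of 9 class II pathway genes, 8 were higher, with a median of 0.37. Their summed level was 78.0 to 95.3 CPM after 6-OHDA and 105 to 111 with TUG469, without overlap. Ctss, the protease that trims the invariant chain, was at 0.36 and H2-Ob at 0.79. Ciita, the class II transactivator, was not in either table.
Most interferon response genes also stood higher. Of 28 tested, 27 were higher and 1 lower, with a median log2 difference of 0.74. Of these, 16 were higher at an unadjusted p under 0.05, beside 3.46% of all genes. The groups of 17 lay apart, beside 7.11% of all genes. Trim30a was at 0.86, Ifit3 at 1.02, Oasl2 at 1.05 and Ifit1 at 1.09, and none of the 28 passed the edgeR adjusted threshold. DESeq2 called 2 of the 28, beside 62 of 18286 genes. Their summed level was 163.3, 152.8 and 128.5 CPM after 6-OHDA and 166.8, 248.5 and 193.5 with TUG469. TUG469 2, one of the 3 libraries that stand apart, was the highest, and TUG469 1 lay just above the highest 6-OHDA library. Without TUG469 2 the median was 0.39 with 9 genes at an unadjusted p under 0.05. Without all 3 it was 0.25 with 7, beside 2.57% of all genes higher at that level. In nigra the same comparison had 20 of 30 higher and 10 lower, with a median of 0.12.

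Cell type markers moved beside the 10 genes in the striatum. All 15 microglia markers were higher in TUG469 than in 6-OHDA, with a median log2 difference of 0.25. Of them, 5 had an unadjusted p under 0.05, where 3.46% of all genes were higher at that level. That count was 10 without 6-OHDA 3. The median was 0.16 without 6-OHDA 4 and 0.24 without the 3 libraries that stand apart. Itgam was at 0.39 and P2ry12 at 0.32. The summed microglia level was 505 to 579 CPM after 6-OHDA and 571 to 662 with TUG469. The groups overlapped, with TUG469 2 below 6-OHDA 3. For the 10 class I genes the sums were 113 to 136 and 165 to 168 CPM, without overlap.
Of 14 endothelial markers, 13 were higher, with a median of 0.24 and summed levels of 253 to 280 against 299 to 304 CPM, also without overlap. The endothelial sums after PBS were 287 to 321 CPM, a range that holds the TUG469 libraries. Against PBS, 8 of the 14 were higher with TUG469 and 6 lower, with a median of 0.07. Slco1a4 was at 0.26 and Cdh5 at 0.34. The part of microglia and endothelial RNA in the class I values was not tested.
Lymphocyte markers gave little to read. Of 14 T and NK cell markers, 11 were not in the striatal table, among them Cd3d, Cd3e, Cd3g and Cd8a, and each table lists only genes with at least 1 read in every library. Of 7 border macrophage and dendritic markers tested, 3 were higher and 4 lower, with a median of -0.03 and summed levels of 5.0 to 7.5 against 4.0 to 7.9 CPM. All 5 choroid plexus markers (median -2.32) and all 7 ependymal markers (median -0.56) were lower with TUG469. The choroid plexus sum was at 26.8 to 1674 CPM after 6-OHDA and 21.4 to 27.1 with TUG469, and the log2 difference of H2-K1 without 6-OHDA 2, the library at 1674, was 0.58.

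**Figure D5:**
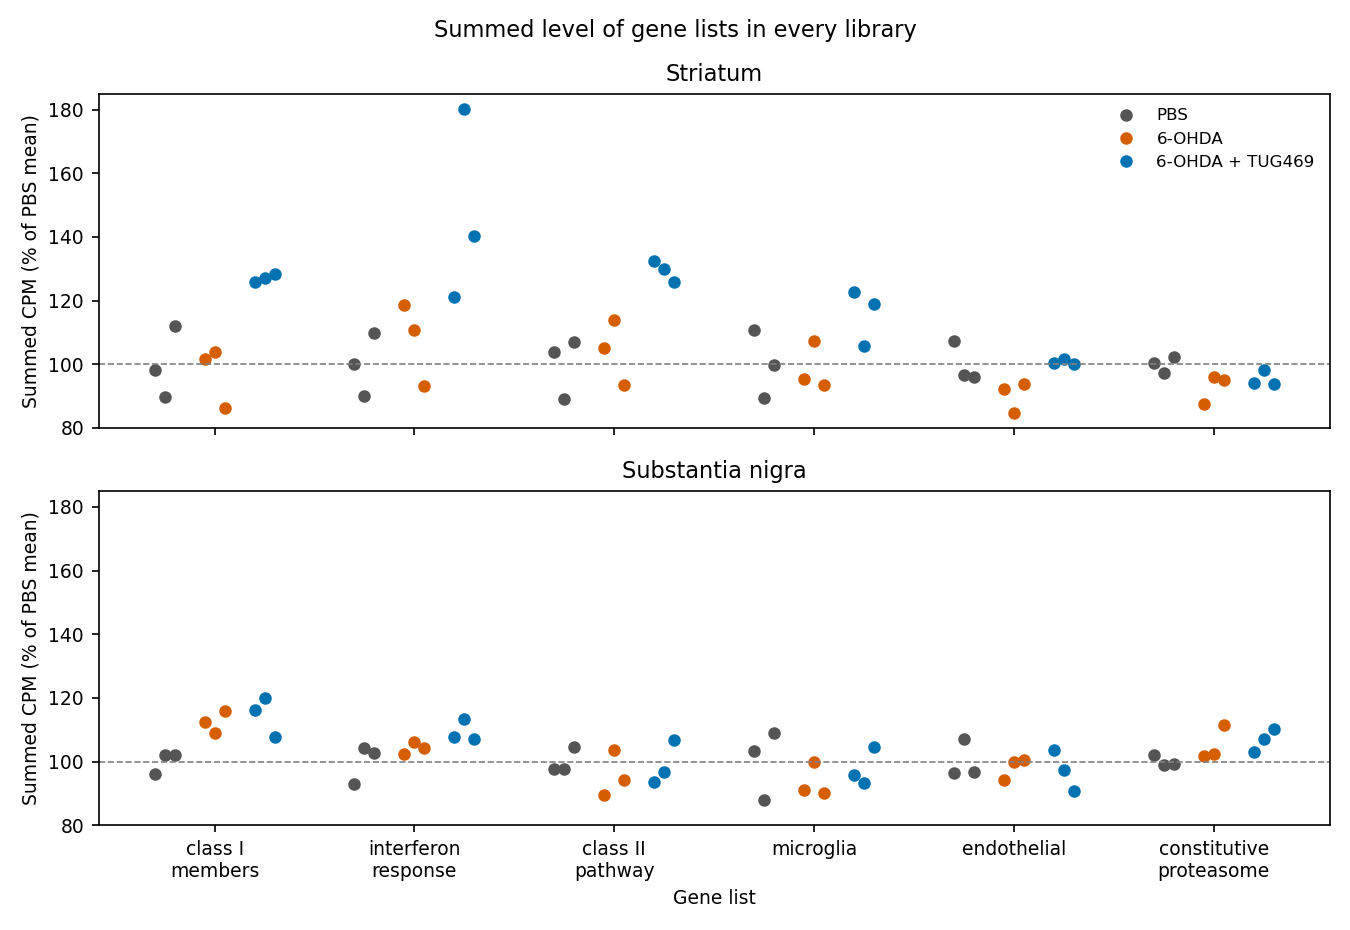
Summed CPM of the 10 class I genes and of other gene lists in every library, as a percent of the mean of the PBS group of the same tissue, with points for libraries. In striatum the class I sums of the TUG469 libraries (165 to 168 CPM) lie above those of all other striatal libraries. The same holds for the class II pathway (105 to 111 CPM) and interferon response sums (167 to 248 CPM). The endothelial sums of the TUG469 libraries (299 to 304 CPM) lie above those of the 6-OHDA libraries (253 to 280 CPM) and inside the PBS range (287 to 321 CPM). The microglia sums of the TUG469 (571 to 662 CPM) and 6-OHDA libraries (505 to 579 CPM) overlap.

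The 10 genes varied together in striatum. Over the 9 striatal libraries, the Pearson correlation of each with the mean of the other 9 ran from 0.507 (Psmb9) to 0.970 (H2-D1). In nigra it ran from -0.242 (Nlrc5) to 0.809 (H2-D1). These libraries share their groups, and the values are a description only.
The genes most like the mean of the 10 in striatum, of 13928 with a mean of at least 1 TPM, were Maged2 (r = 0.972), Pold4 (0.962), Pm20d1 (0.958), Lysmd4 (0.955), Pcdhgc4 (0.953), Tgfbr2 (0.952), Gbp2 (0.950) and BC003965 (0.946). In nigra, of 14281 genes, they were Nosip (0.992), Scnm1 (0.990), S100a1 (0.975), Sart1 (0.972), Zfp692 (0.966), Smim20 (0.965), Pgam1 (0.963) and Mrps10 (0.963). No gene was on both lists.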

How the data were processed

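Stranded poly(A) RNA libraries of 9 striatal and 9 nigral samples were measured, per the labels' protocols. The tools named, with no order, are STAR 2.7.3a, Cufflinks, FastQC 0.11.7 and Trim Galore 0.38 with build GRCm38, per the submitters' processing notes. The sources used here name no annotation, counting tool or strand setting.

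For each gene the deposited tables hold raw counts, TPM and FPKM, per the file headers, with a signed fold change (a score here, since it has no values between -1 and 1) and p-values for each comparison. The FPKM values served only to derive gene lengths. A gene is in a table only if every library of that tissue has at least 1 read for it, and 0 columns belonged to another series.

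In R 4.3.3, edgeR 4.0.16 tested the counts by quasi-likelihood, with TMM scaling and filterByExpr (minimum count 10, minimum total 15). This left 19115 genes in striatum, 19686 in nigra and 18749 in the fit of both tissues. The 9 libraries of a tissue, or all 18 for comparisons across tissues, shared 1 fit with a mean per group. P-values were Benjamini-Hochberg adjusted over all genes tested, with a threshold of 0.05, in 9 comparisons. CPM values use TMM factors of the tissue, unless all 18 libraries are said to be scaled together. DESeq2 1.42.0, limma 3.58.1 on log2(TPM + 1) and log2(TPM + 0.1), other scaling and filters, a gene length correction, a replicate block and leaving out single libraries were alternatives. Leaving out 3 striatal libraries together was added after seeing the data. The edgeR step was tested on simulated data. Sequence matches used Python 3.11.15 and Biopython 1.88.

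The members and the 16 gene lists were chosen with earlier results of these data known. Named are all 10 members, in other lists genes past the threshold or up to 4 genes with the smallest unadjusted p, of which fewer are printed here, and the 8 genes most like the members' mean (log2 CPM scaled per gene).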

Additional observations from a re-analysis of the deposited data

How the results depend on the processing

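With 3 libraries a group and as few as 13 reads for Psmb9, log2 differences of the low genes are imprecise, and a p that misses the threshold does not show equal levels. The count of members called was the same under all alternatives but DESeq2, which called 1 in striatal TUG469 against 6-OHDA and 2 in striatal TUG469 against PBS where edgeR called 0, and between the PBS groups of the tissues it ran from 4 to 7 around the 5 of edgeR. Of the members' log2 values under alternatives, 1867 kept direction and side of the threshold, 9 came to pass it, 9 no longer passed and 65 changed sign. The cause of these changes was not tested.

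Between PBS groups of the tissues, B2m passed with limma (adjusted p = 0.00848 and 0.00855), and H2-K1 with limma, without striatal PBS 3 or 6-OHDA 4 (adjusted p = 0.0213 and 0.0415), and with the replicate block (0.0377, and 0.0292 with length). Tapbp there no longer passed with the compared groups only (0.133) or the length trend removed (0.0539, and 0.0601 with the replicate block). The log2 difference of H2-K1 in striatal TUG469 against 6-OHDA was between 0.41 and 0.58 without single libraries. Over all genes, nigral TUG469 against PBS called 364 genes, but 146 with upper-quartile scaling, 39 with the compared groups only, 56 with the length trend removed, 13 with the replicate block, 1543 with DESeq2 and 8 to 527 without single libraries. DESeq2 called 173, 62 and 323 genes in the striatal comparisons with 6-OHDA against PBS, TUG469 against 6-OHDA and TUG469 against PBS, where edgeR called 0, 1 and 0, and 431 and 101 in the first 2 nigral ones, where edgeR called 1 and 1. The 6-OHDA difference between tissues called 29 genes, against 337 with DESeq2, 66 with the replicate block, 5 with block and length, 2 without the 3 striatal libraries and 7 to 96 without single libraries. Limma on TPM placed the median of all genes 0.213 (with + 1) and 0.28 (with + 0.1) higher in nigra than in striatum, and its values between the PBS groups are relative to that shift.

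Log2 values that changed sign follow, each with its range without single libraries. In striatum, 6-OHDA against PBS, H2-K1 (-0.0747) ran from -0.154 to 0.0245 and was 0.00207 and 0.00214 with limma. H2-D1 (-0.0797) ran from -0.175 to 0.0209, Psmb8 (-0.202) from -0.387 to 0.119 and Nlrc5 (0.155) from -0.188 to 0.509. Tap2 (-0.0143) ran from -0.0915 to 0.0961, and was 0.0328 and 0.0366 with limma and 0.0928 without the 3 striatal libraries. Psmb9 in striatal TUG469 against PBS (0.171) was -0.0382 without those 3. In nigra, 6-OHDA against PBS, Tap1 (0.0185) ran from -0.051 to 0.0595 and was -0.0154 and -0.0209 with limma, Psmb9 (0.228) from -0.148 to 0.664, and Nlrc5 (0.117) from -0.0896 to 0.287, with -0.0667 under the replicate block. In nigra, TUG469 against 6-OHDA, Tap2 (-0.000214) ran from -0.0912 to 0.107, with 0.00807 under upper-quartile scaling and 0.00321 with no filter, and Tapbp (0.0229) was -0.00986 with the replicate block and -0.0178 with block and length. Nlrc5 in nigral TUG469 against PBS (-0.147) was 0.0319 with block and length. Between PBS groups of the tissues, B2m (-0.00238) ran from -0.0536 to 0.0867, and was 0.0143 with upper-quartile scaling, 0.00493 with no filter, 0.284 and 0.286 with limma, 0.000851 with the replicate block, 0.131 with the length trend removed and 0.133 with both. Psmb8 (-0.248) ran from -0.418 to 0.0736 and was 0.0575 and 0.0763 with limma, and Nlrc5 (0.106) from -0.0282 to 0.317, with -0.00707 by length and -0.035 by length and block. For the tissue gap in the TUG469 difference, Psmb9 (-0.078) ran from -0.364 to 0.185. For the gap in the 6-OHDA difference, Cd74 (0.326) ran from -0.0209 to 0.592, Tapbp (-0.0294) from -0.0963 to 0.104, with 0.0956 without the 3 striatal libraries, and Nlrc5 (-0.0385) from -0.374 to 0.317, with 0.068 under the replicate block, 0.105 by length and 0.211 by both.

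The replicate numbers did not meet the bar for pairing, a correlation over 0.1 in every same-numbered pair: correlations of same-numbered deviations ran from -0.2641 to 0.4168 within tissues and 0.0182 to 0.2045 across them, where all 9 were positive and 5 were over 0.1. Across tissues each nigral library correlated best with its own number but PBS 1, a hint from the data and not the design.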
